A study of Drosophila melanogaster with 12 samples.

Results

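The regions described here are the places on the X chromosome of Drosophila melanogaster where tagged Phaser (CG7372) or tagged Saft (CG11247) was enriched by ChIP-seq. All X peaks of the 6 deposited peak lists were taken, and peaks that overlapped by 1 bp or more in any lists were merged into 1 region. This gave 799 X regions of 6795 in the whole genome, built from 1777 of 14668 peaks. The 5977 regions on the 4 large autosomal arms (2L, 2R, 3L and 3R) served as the background.

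All cells were Schneider S2 cells that carried OsTir1, the plant receptor through which auxin triggers destruction of a degron-tagged protein, and none was depleted of a protein. In the Phaser group the endogenous Phaser gene carried a FLAG-AID tag on every copy, in clone 8D (2 biological replicates). In the Saft groups the endogenous Saft gene carried the same tag, in clones 9C and 4H (2 biological replicates each). Chromatin was pulled down with the FLAG M2 antibody, and each of the 6 ChIP libraries had an input library that has no peak list of its own. Each line is a single clone, Phaser rests on 1 line, and an anti-FLAG library from cells without a tag was not analysed here.

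ChIP-seq recovers DNA fragments bound by a protein, and a peak is a stretch where such fragments pile up above the local background, with its summit at the highest point. The labels call both proteins transcription factors, which are proteins that bind regulatory DNA and raise or lower the activity of genes, and the study's title places them in a screen for silencers, the DNA elements that lower it. S2 is an embryo-derived line of male character with fewer copies of the X than of the autosomes, and male flies raise transcription of the X through the dosage compensation complex. Copy number and transcription of the X were not measured in the files used here.

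The X peaks were spread unevenly over the lists. Phaser replicate 1 held 660 X peaks and replicate 2 held 486. Saft clone 9C held 160 and 171 X peaks, and clone 4H held 159 and 141. Read depth is unknown, and peak number moves with it. ChIP reads at a summit, recovered from the authors' fold enrichment and −log10 p, ran from 37 to 288 on the X. No list of the whole genome exceeded 283 to 290 reads, so values near 280 are close to a ceiling that all 6 lists share.

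Most X regions belonged to Phaser alone, and the smallest class of the 3 held both factors. Phaser lists alone accounted for 588 X regions (73.6%, 95% Wilson interval 70.4 to 76.5), beside a background of 70.7% of the autosomal regions. Saft lists alone accounted for 131 X regions (16.4%, 14.0 to 19.1), beside 21.1%. Peaks of both factors met in 80 X regions (10.0%, 8.12 to 12.3), beside 8.16%. The X therefore held a smaller part of Saft-only regions than any autosomal arm, where the lowest share was 19.4%. The lower share lay in those of 1, 2 and 3 Saft lists, at 6.01%, 1.13% and 0.751%, beside 8.78%, 3.13% and 1.49%. Saft-only regions in all 4 lists made up 8.51% on the X, beside 7.15% to 8.39% on the autosomal arms. Intervals here cover counting error over regions only, and the classes have no replicate and no test.

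**Figure D1:**
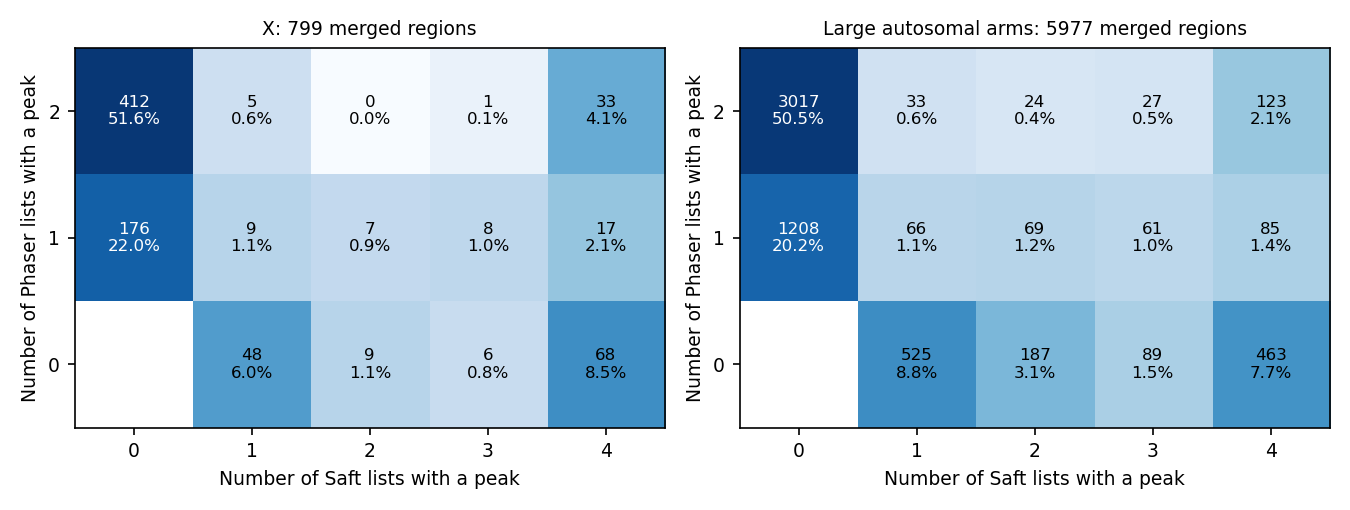
Number and percent of merged regions by how many Phaser lists (vertical axis, 0 to 2) and how many Saft lists (horizontal axis, 0 to 4) had a peak there, for the X (left) and the 4 large autosomal arms (right). The largest cells of the X are the 412 regions in both Phaser lists alone and the 176 in 1 Phaser list alone, followed by 68 in all 4 Saft lists alone, 48 in 1 Saft list alone and 33 in all 6 lists.

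Regions found in every list of one factor and in no list of the other are called core regions below. The X held 412 Phaser core regions (51.6% of X regions, beside a background of 50.5%) and 68 Saft core regions (8.51%, beside 7.75%). A further 33 X regions were present in all 6 lists (4.13%, 2.96 to 5.74), beside a background of 2.06%, and the share was above that of each of the 4 autosomal arms. Regions seen in a single list numbered 224 (28.0%, beside 29.0%), of which 163 came from the longer list, Phaser replicate 1. Regions at intermediate steps were few. No X region combined both Phaser lists with exactly 2 Saft lists, and 1 combined both Phaser lists with 3 Saft lists. These classes were rare on the autosomes too, at 0.402% and 0.452% of regions.

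Seen from Saft, sharing on the X was common, and seen from Phaser it was rare, because the Saft set is smaller. Of the 211 X regions with any Saft peak, 80 (37.9%) also had a Phaser peak, beside 27.9% of such autosomal regions. The same 80 were 12.0% of the 668 X regions with any Phaser peak, beside 10.4% on the autosomes. Without Phaser replicate 1 the share of X regions with both factors was 5.93% in place of 10.0%, and that of autosomal regions 4.14% in place of 8.16%. On the X, 41 of the 80 shared regions had a peak in 1 Phaser list only, beside 281 of 488 on the autosomes.

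Sharing on the X went with weak Saft signal. The 118 X regions in all 4 Saft lists were divided by their mean recovered reads, at limits chosen after the data were seen. Of the 48 regions under 100 reads, 44 (91.7%, 80.4 to 96.7) had a Phaser peak, beside 73.6% of autosomal regions in that range. Of the 16 with 100 to under 200 reads, 6 (37.5%, 18.5 to 61.4) had one, beside 49 of 125 on the autosomes (39.2%). Of the 54 with 200 reads or more, 0 had one (Wilson interval to 6.64%), beside 11 of 345 on the autosomes (3.19%). On the Phaser side, 30 of 297 X regions under 100 reads had a Saft peak (10.1%), beside 9.52% on the autosomes. In the middle range 5 of 120 had one (4.17%, beside 4.70%), and at 200 reads or more 4 of 34 (11.8%, 4.67 to 26.6, beside 3.09%). The autosomal shares thus fell with reads, and the highest X share rests on 4 regions.

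The exceptions to this pattern can be named by position, chosen after their values were seen. The 4 weak Saft regions without Phaser lay at X, 7447016 to 7447339 (mean 69.75 reads over 4 lists), 8529436 to 8529753 (51.25 reads), 12057016 to 12057259 (66.5 reads) and 19069055 to 19069216 (67.0 reads). Of the 4 strong Phaser regions that also held Saft, the regions at 6962912 to 6963745 and 13830493 to 13831404 were in all 6 lists. They held means of 220.5 and 221.0 Phaser reads but 65.0 and 60.5 Saft reads. The remaining pair, at 1942559 to 1943906 (204.5 Phaser reads) and 9534324 to 9535549 (247.0 Phaser reads), had a peak in 1 Saft list, of 45.0 and 61.0 reads.

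In the 33 X regions of all 6 lists the factors had nearly equal recovered reads at nearly the same base. Read depth is unknown and recovered reads are not scaled for it, so nearly equal reads are not shown to be equal signal. A region also needed a peak in every list to enter this set, which limits how low its reads can be for either factor. The ratio of mean Phaser to mean Saft reads had a median of 0.952 and lay within 1.5-fold of equality in 31 of 33 regions (93.9%), beside 106 of 123 autosomal regions (86.2%). The exceptions on the X were the 2 strong Phaser regions named above, with ratios up to 3.65. The mean summit of the Phaser lists and that of the Saft lists lay a median of 22.5 bp apart, beside 35.5 bp on the autosomes, and within 100 bp in 32 of 33 regions, beside 105 of 123 on the autosomes. Summits of the 2 Phaser replicates, which are not averaged, lay a median of 41.0 bp apart in the same X regions, beside 23.0 bp on the autosomes. Without lists from untagged cells, the part of signal that does not depend on either tagged protein was not tested at these places.

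Reads per list show how far the classes lay apart for Saft and how little for Phaser. In the Saft core regions of the X the median summit held 244 and 251 reads in the clone 9C lists and 233.5 and 238.5 in the clone 4H lists. In the X regions of all 6 lists the Saft medians were 78 and 82 in clone 9C and 76 and 67 in clone 4H, and the highest values were 148, 152, 156 and 119. The Phaser medians were 93 and 77 in Phaser core regions and 83 and 67 in the regions of all 6 lists. Each Saft list thus had a median in core regions more than 2 times that in shared ones, and the ranges overlapped, since the lowest Saft core values were 46 to 57 reads. The autosomes had the same order, with Saft medians of 237 to 258 reads in core regions and 84 to 105 in regions of all 6 lists. Phaser medians there were 123 and 105 against 98 and 80.

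**Figure D2:**
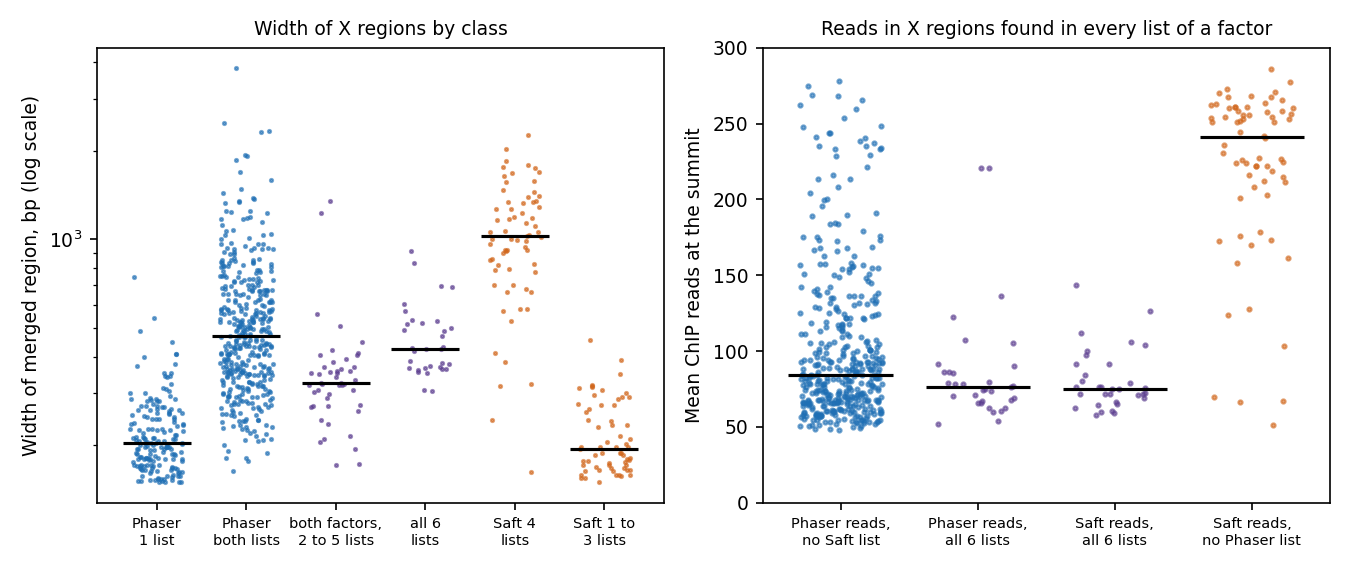
Left, width of each X region in bp (log axis) by the lists that had a peak, with 1 point per region and a bar at the class median. Right, mean recovered ChIP reads at the summit for X regions present in every list of a factor, where Saft core regions have medians of 233.5 to 251 reads in single lists and the regions of all 6 lists have Saft medians of 67 to 82.

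Width followed the same division. The 68 Saft core regions of the X had a median merged width of 1023.5 bp (range 162 to 2253), beside 1363 bp on the autosomes. The 412 Phaser core regions had a median of 468.5 bp (164 to 3804), beside 506 bp. The 33 regions of all 6 lists had a median of 426 bp (305 to 912), beside 476 bp. The narrowest classes were those of a single list, with medians of 203.5 bp for Phaser and 180.5 bp for Saft. A merged region is at least as wide as any of its peaks, so regions of more lists are wider by construction.

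Single peaks on the X gave the widths without that effect. The median X peak measured 353.5 and 318 bp in the Phaser lists, 351 and 346 bp in Saft clone 9C, and 344 and 396 bp in clone 4H. The means were 335.75 ± 25.1 bp for Phaser (SD, n = 2) and 359.25 ± 24.7 bp for Saft (SD, n = 4), a difference within the spread (exact permutation test of the factor over 6 libraries, two-sided, p = 0.533, adjusted p = 0.533 over 4 measures). The smallest p that the 15 assignments allow is 0.0667, so none of the Phaser and Saft comparisons could pass 0.05. Libraries of a clone share a line, so these p-values measure the spread between libraries.

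Regions at named positions show the classes in single lists. The best shared region, X, 4411354 to 4412046, was chosen by its lowest fold enrichment in any list. Phaser replicates 1 and 2 had 147 and 126 reads there, clone 9C had 148 and 152, and clone 4H had 156 and 118. Their fold enrichments were 10.0 and 6.99 for Phaser (8.52 ± 2.17, SD, n = 2), and 9.80, 9.02, 10.2 and 6.55 for Saft (8.89 ± 1.64, SD, n = 4). Reads and folds of the factors overlapped, with reads not scaled for depth. The next 4 shared regions lay at 11619596 to 11620128, 10111030 to 10111452, 8116552 to 8117121 and 16067985 to 16068473. Their mean reads were 91.5 to 122.5 for Phaser and 100.0 to 126.25 for Saft.

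The strongest Phaser core region by mean reads was also the widest region on the X. It spanned X, 1279317 to 1283120 (3804 bp), with 2 peaks in each Phaser list and none in a Saft list. Its strongest summits held 280 and 276 reads, at 18.9-fold and 12.9-fold enrichment. The next, at 19768711 to 19770632, held 276 and 274 reads but only 6.21-fold and 7.72-fold enrichment. Fold enrichment is taken over the background at the summit, so regions of like reads can differ in fold. By fold that region had a mean rank of 135 among the X peaks of its lists. The rest lay at 3146008 to 3147128 (mean 269 reads), 10535959 to 10536919 (268.5 reads) and 2106540 to 2108853 (265.5 reads).

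The strongest Saft core region of the X lay at 13212172 to 13213132. It held 288 and 287 reads in clone 9C and 282 and 286 in clone 4H, at 14.8, 16.9, 18.3 and 20.6-fold. The region at 14772715 to 14773770 held 276 to 278 reads in all 4 lists. The region at 19664488 to 19666339 held 271 to 276 reads, while its fold was 9.49 and 12.0 in clone 9C and 17.6 and 19.6 in clone 4H. The last of the 5 lay at 3043917 to 3045105 (mean 270.75 reads) and 11046856 to 11048260 (270.25 reads). At all 5 places neither Phaser list had a peak.

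**Figure D3:**
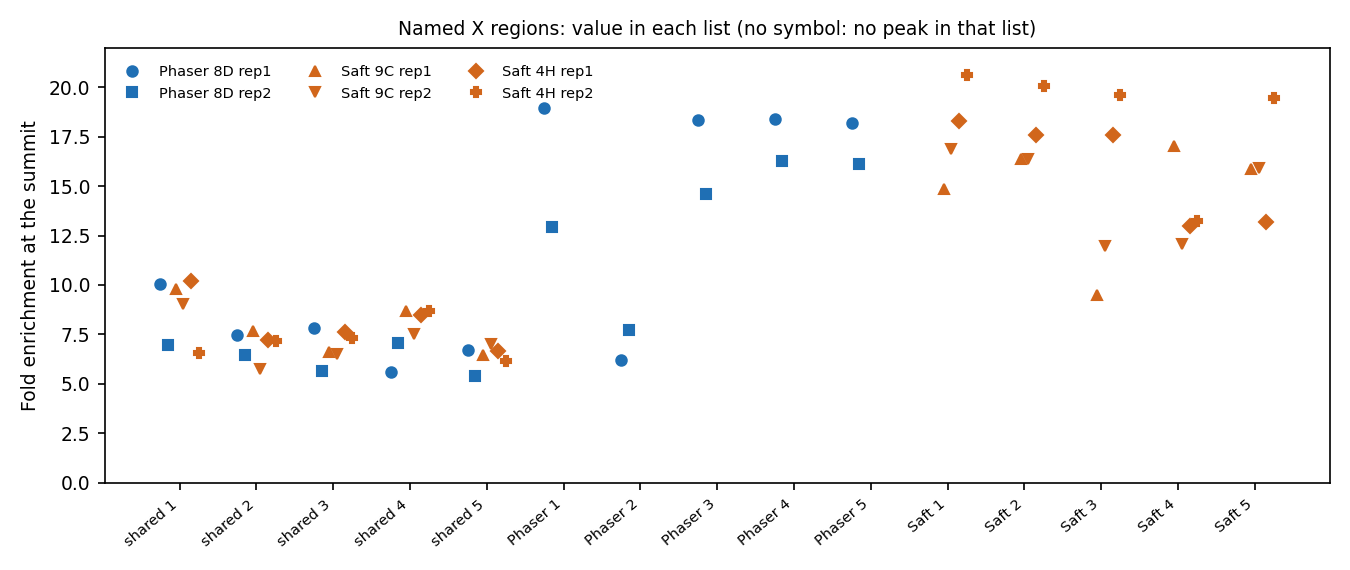
Fold enrichment at the summit (vertical axis, linear ratio) of the named X regions in each of the 6 lists, in the order of the text for the shared, Phaser and Saft regions. The shared regions lie between 5.41 and 10.2 in every list with both factors mixed, and the Phaser and Saft core regions have symbols of their own factor only.

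Among the 5 widest X regions, 4 were Phaser core regions and 1 was a Saft core region. Besides the 3804 bp region and the 2314 bp region at 2106540 to 2108853 they lay at 18258102 to 18260582 (2481 bp, Phaser), 5575440 to 5577768 (2329 bp, Phaser) and 16510837 to 16513089 (2253 bp, Saft). The last held 8 peaks over its 4 lists, and the 2481 bp region had 1 peak in Phaser replicate 1 but 4 in replicate 2, so peak numbers depend on how a broad region was split. Phaser core regions also outnumbered Saft core regions on the X, by 412 to 68. On the autosomes the widest Saft core region measured 5285 bp and the widest Phaser core region 3668 bp.

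Positions along the X differed in outline between the factors. The span from the distal end to the last peak measured 22.2 Mb and was divided into 10 equal intervals. Regions in both Phaser lists were most frequent in the fifth interval (16.2% of 451) and the seventh (14.4%). Regions in all 4 Saft lists were most frequent in the eighth (18.6% of 118) and the ninth (12.7%). Both were least frequent in the last interval, next to the centromere, with 3.10% for Phaser and 3.39% for Saft.

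**Figure D4:**
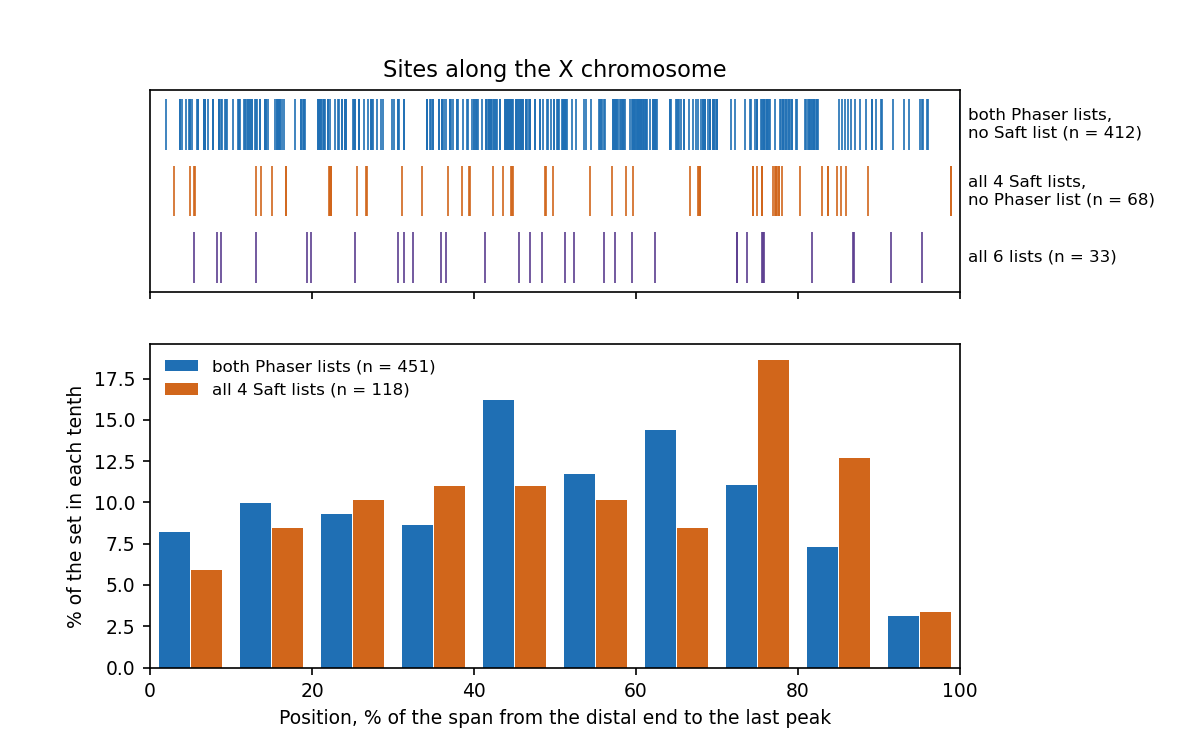
Top, position of each X core region and each region of all 6 lists, as percent of the span from the distal end to the last peak. Bottom, percent of the regions in both Phaser lists (blue) and in all 4 Saft lists (orange) in each of 10 equal intervals, where the blue bars peak at 16.2% and 14.4% and the orange bars at 18.6% and 12.7%.

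By library, the share of X peaks in the distal 50% of the span was 49.8% and 52.5% for Phaser. Saft clone 9C had 45.0% and 43.9% of its X peaks there, and clone 4H had 46.5% and 44.0%. The groups did not overlap, with 51.2% ± 1.85 for Phaser (SD, n = 2) and 44.8% ± 1.24 for Saft (SD, n = 4). The exact permutation test gave p = 0.0667 (two-sided, the smallest possible; adjusted p = 0.133 over 4 measures).

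The share of all main-arm peaks that lay on the X did not separate the factors. It was 12.3% ± 0.194 for Phaser (SD, n = 2) and 11.8% ± 0.924 for Saft (SD, n = 4; exact permutation test, two-sided, p = 0.467, adjusted p = 0.533). This order turned with peak strength. Among peaks of 100 reads or more, a limit set after the data were seen, the Phaser share was lower than the Saft share by 5.08 percentage points (exact permutation test, p = 0.0667). Among peaks with a −log10 q of at least 10, the Phaser share was lower by 3.89 points.

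Numbers of the factors' regions were also set against each other along the X. Over 22 full bins of 1 Mb, regions in both Phaser lists numbered 5 to 38 (median 20) and regions in all 4 Saft lists 1 to 13 (median 5). Their numbers had a Pearson r of 0.472 and a Spearman rho of 0.584, and a last bin of 0.179 Mb raised these to 0.547 and 0.637. In bins of 0.5 Mb r was 0.476. On the autosomal arms r over full 1-Mb bins ran from −0.10 on 3L to 0.417 on 2R. The bins of an arm share its libraries and any sparse end, so these are descriptions with no test.

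The densest 200-kb windows of the factors overlapped. The Phaser window, X, 16723823 to 16923822, held 17 regions of both Phaser lists, and the Saft window, 16632033 to 16832032, held 8 regions of all 4 Saft lists. Within the Saft window the 4 strongest regions had no Phaser peak. They lay at 16631214 to 16632851 (254.5 mean reads), 16755080 to 16755871 (170.0), 16757919 to 16759081 (240.75) and 16761964 to 16762820 (227.25). The other 4 had 58.0 to 71.5 Saft reads and a Phaser peak of 60.0 to 67.0 mean reads. Their places were 16745045 to 16745349, 16774575 to 16774953, 16800934 to 16801290 and 16801885 to 16802262.

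The 68 Saft core regions of the X, which by definition have no Phaser peak, lay a median of 28.7 kb from the nearest region of both Phaser lists. On the autosomal arms, where Phaser regions were denser, the medians were 14.8 to 18.5 kb. One Saft core region of the X lay within 1 kb of such a region (1.47%), beside 1.41% to 6.73% on the autosomal arms.

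The longest stretches of the X without any region were near its proximal end and past its middle. They ran from 21290113 to 21913887 (624 kb), from 13881021 to 14234714 (354 kb) and from 21929920 to 22178560 (249 kb). Between the first and the last of these lay a weak Phaser peak in 1 list (21913888 to 21914050, 55.0 reads) and 2 Saft core regions, at 21921696 to 21923264 (256.5 mean reads) and 21929218 to 21929919 (222.0). The last region of the X, at 22178561 to 22178904, held 74.0 mean Phaser reads in both lists. Whether reads could be placed in these stretches was not tested.

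Over all X regions the median gap between neighbours was 13.2 kb and the mean was 26.8 kb. Regions in both Phaser lists had a median gap of 22.3 kb, and regions in all 4 Saft lists one of 111 kb. The 33 regions of all 6 lists were far apart, with a median gap of 551 kb and a median over mean gap of 0.884. Among all 799 regions that ratio was 0.490. Equally spaced regions would give a ratio near 1, and clustered ones give a lower ratio. A value for randomly placed regions is not given here, so a ratio below 1 does not by itself show clustering. On the autosomal arms the ratio among all regions was 0.412 to 0.455. Regions in both Phaser lists had 0.466 on the X, beside 0.432 to 0.500 on the arms. Regions in all 4 Saft lists had 0.616, beside 0.287 to 0.448.

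Within single lists, X peaks of Phaser had lower ratios than those of Saft. The median over mean gap was 0.456 and 0.448 in the Phaser lists, 0.518 and 0.515 in clone 9C, and 0.567 and 0.492 in clone 4H. The groups did not overlap (0.452 ± 0.00569, SD, n = 2, against 0.523 ± 0.0313, SD, n = 4; exact permutation test, two-sided, p = 0.0667, the smallest possible, adjusted p = 0.133). Among peaks of 100 reads or more the order was reversed, with Phaser higher by 0.130 (exact permutation test, p = 0.0667).

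Against the autosomes, the X had fewer peaks per Mb in every list. The density was 29.8 and 21.9 peaks per Mb on the X in the Phaser lists, against 49.0 and 37.0 on the 4 large arms. It was 7.21 and 7.71 against 12.9 and 14.1 in clone 9C, and 7.17 and 6.36 against 11.1 and 11.8 in clone 4H. The X lay below all 4 arms in 6 of 6 lists, at 0.580 of the autosomal density on average (log2 difference −0.79 ± 0.10, SD, n = 6; exact sign-flip permutation test over libraries, two-sided, p = 0.03125, adjusted p = 0.0547 over 7 measures). With 6 libraries, 0.03125 is the smallest p, and 4 of the 7 measures reached it, which gives 0.0547 after adjustment. None of the 7 passed 0.05 after adjustment. The ratio was 0.599 for Phaser and 0.570 for Saft (exact permutation test of the difference, p = 0.467).

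Fold enrichment was higher on the X in every list, and above all 4 arms in 6 of 6. The median was 4.84 and 4.33 on the X against 4.45 and 4.16 on the autosomes for Phaser. It was 4.95 and 4.76 against 3.63 and 3.36 in clone 9C, and 4.79 and 5.53 against 3.76 and 3.67 in clone 4H. The mean difference was 0.34 ± 0.21 on the log2 scale, or 1.27-fold (SD, n = 6; exact sign-flip permutation test, p = 0.03125, adjusted p = 0.0547). The recovered background behind the fold moved with it. Its median under X peaks was 3.32 to 5.89 over the 6 lists and 5.1 to 9.0 under autosomal peaks. The most frequent background value of the X peaks of a list lay under 59.1% to 68.1% of its X peaks. The X median of each list was this value, so fold at most X peaks was taken over a constant of the list. The same value lay under 0.574% to 2.09% of its autosomal peaks. It was picked among X peaks, so a higher share on the X is partly built in.

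ChIP reads, which are not divided by the background, did not differ in 1 direction between the X and the autosomes. The median summit held 77 and 73 reads on the X against 98 and 99 on the autosomes in the Phaser lists. In clone 9C it held 82.5 and 83 against 82 and 84, and in clone 4H 80 and 94 against 89 and 77. The mean log2 difference was −0.11 ± 0.26 (SD, n = 6; exact sign-flip permutation test, p = 0.3125, adjusted p = 0.365). X reads were 0.761 of the autosomal median for Phaser and 1.02 for Saft, and the difference between the factors had the smallest p that 15 assignments allow (exact permutation test, p = 0.0667, adjusted p = 0.0933).

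**Figure D5:**
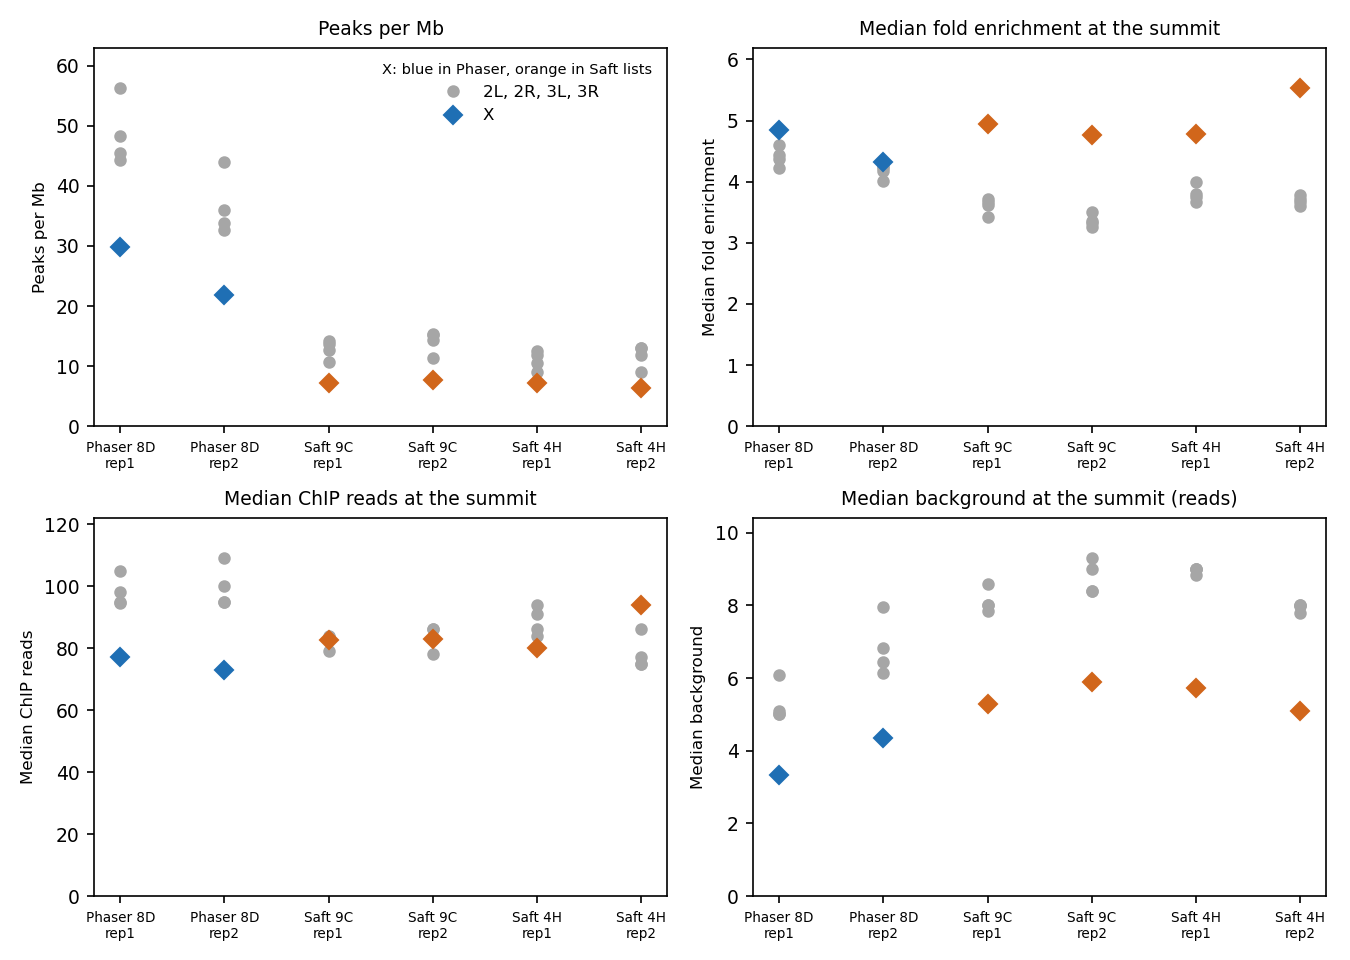
Peaks per Mb, median fold enrichment, median ChIP reads at the summit and median background at the summit (in reads as scaled by the peak caller) for the X (diamonds) and each of the arms 2L, 2R, 3L and 3R (grey) in each of the 6 lists. The X lies below the arms in density and background and above them in fold in 6 of 6 lists, and its reads lie below the arms in both Phaser lists.

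X peaks overlapped the other factor more often than autosomal peaks. Of Phaser peaks on the X, 12.1% and 8.02% overlapped a Saft peak in the 2 lists, against 10.5% and 6.06% on the autosomes. Of Saft peaks on the X, 40.0% and 39.2% overlapped a Phaser peak in clone 9C and 40.3% and 42.6% in clone 4H, against 27.7% to 31.5% on the autosomes. The X was above all 4 arms in 6 of 6 lists, by 8.08 ± 5.26 percentage points (SD, n = 6; exact sign-flip permutation test, p = 0.03125, adjusted p = 0.0547). Among peaks of 100 reads or more the direction was reversed, at −2.55 points (exact sign-flip permutation test, p = 0.09375). The excess was kept, at a smaller size, under the other limits on strength, at 2.55 points with a −log10 q of at least 10 and 1.57 points among the 1000 strongest peaks of each list (exact sign-flip permutation test, p = 0.03125 and adjusted p = 0.0365 and 0.0729). The unadjusted p is the smallest possible in each setting, so the adjusted values differ only through the other measures.

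The share of X peaks found again in the other replicate was 69.1% and 97.3% for Phaser, where the lists differ in length. It was 88.8% and 82.5% in clone 9C and 83.0% and 89.4% in clone 4H. The Saft shares exceeded those of the autosomes, which were 68.6% to 81.0%. Over all 6 lists the X was higher by 6.91 ± 7.80 points (SD, n = 6; exact sign-flip permutation test, p = 0.09375, adjusted p = 0.131), 5 lists being higher and 1 lower.

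Spacing on the X was more even than on the autosomes as the peaks were deposited, mainly for Saft. The median over mean gap exceeded that of the autosomes in 6 of 6 lists, by 0.154 ± 0.0969 (SD, n = 6; exact sign-flip permutation test, p = 0.03125, adjusted p = 0.0547). The Phaser excess was small, at 0.047 and 0.021, and Phaser replicate 2 lay within the range of the autosomal arms. The mean Saft excess was 0.213 ± 0.0352 (SD). In core regions the Phaser excess was 0.0054 and 0.0014, while that of Saft ran from 0.213 to 0.285. Gaps under 1 kb moved with the ratio. They made up 5.71% to 9.49% of X gaps in the Saft lists, against 12.0% to 23.7% of autosomal gaps, and 12.4% and 10.3% against 17.4% and 14.2% in the Phaser lists. With peaks under 1 kb apart joined, the mean excess over the 6 lists was 0.0653 and Phaser replicate 2 turned to −0.011 (exact sign-flip permutation test, p = 0.0625, adjusted p = 0.109).

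The median width of X peaks did not differ in 1 direction from that of autosomal peaks. Both Phaser lists were narrower on the X (353.5 and 318 bp against 363 and 346 bp) and all 4 Saft lists were wider (344 to 396 bp against 318 to 345 bp). The mean log2 difference was 0.050 ± 0.12 (SD, n = 6; exact sign-flip permutation test, p = 0.40625, adjusted p = 0.40625).

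Restricted to core regions, a set chosen after the data were seen, X peaks were narrower in all 6 lists. The median X peak of a Phaser core region measured 453 and 326.5 bp, against 486 and 360 bp on the autosomes. In Saft core regions it measured 900 and 851.5 bp against 1016 and 1014 bp in clone 9C, and 678 and 977 bp against 828 and 1054 bp in clone 4H. The mean was 0.884 of the autosomal width (log2 difference −0.18 ± 0.077, SD, n = 6; exact sign-flip permutation test, p = 0.03125, adjusted p = 0.0391 over 5 measures). In the same set the X had on average 0.581 of the autosomal density and 1.36 times the fold (each p = 0.03125, adjusted p = 0.0391, exact sign-flip permutation test, n = 6). Each of these p-values is the smallest that 6 libraries allow. Density and fold reached it in the full lists too, and their adjusted p is lower here because 5 measures were adjusted in place of 7. The fold ratio differed by factor. Phaser had 1.07 and 1.05, while Saft ran from 1.51 to 1.57. ChIP reads had on average 0.900 times the autosomal median (exact sign-flip permutation test, p = 0.125, adjusted p = 0.125). Here Phaser had 0.762 and 0.738, while Saft ran from 0.960 to 1.002. The Saft medians, 214 to 247.5 reads on the X and 223 to 247 on the autosomes, lay nearer the ceiling of the lists. The Phaser medians were 93 and 76 reads against 122 and 103. Values near a ceiling have less room to differ, and its effect on the ratios of the factors was not tested.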

How the data were processed

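The files were 6 peak lists, 1 for each ChIP library and not pooled. The tools listed in the submitters' processing notes, with no order or settings, are MACS2 2.1.2.1, Bowtie 1.2.2, Trim Galore 0.6.2 and bedtools 2.27.1, and the build is dm3. Per the labels, cells were fixed in 1% formaldehyde for 10 min and chromatin was sheared to 200 to 1000 bp.

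Each deposited peak has a fold enrichment, the ratio of ChIP signal to background at its summit. Its −log10 p and −log10 q were also deposited as the caller wrote them, and the lowest −log10 q per list lay between 1.30 and 1.44. The deposited score was not used. Fold and −log10 q served to describe or filter peaks inside 1 list. Depth is unknown, and whether the inputs were the caller's controls is not given in the sources used here.

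Reads and background were recovered from fold and −log10 p, as the caller adds 1 to both before the ratio and uses a Poisson tail. With a tolerance of 0.03 reads, 100% of peaks gave whole reads, against 3.91% to 5.54% with a wrong factor. PCR duplicates and the caller's handling of them are not known, so recovered reads are not counted molecules.

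Peaks overlapping by 1 bp were merged. A region takes the strongest peak's value in each list. Each arm ends at its last peak in any list. X and autosomes were compared within each library by an exact sign-flip test over 6 libraries, adjusted by Benjamini-Hochberg over 7 measures. Phaser and Saft were compared by exact permutation over 15 assignments, adjusted over 4. Intervals are 95% Wilson intervals. Named regions were the 5 shared ones with the highest lowest fold, the 5 core ones of each factor with the most mean reads, the 5 widest, the 3 longest empty stretches and the densest 200-kb windows. Scripts were tested on simulated data. Alternatives were the 1000 strongest peaks, a −log10 q of at least 10, other overlap rules, added scaffolds, clone means, the replicate block and each library left out. Later additions were 100 reads or more, core regions, joined peaks, full bins only and other rankings.

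The regions and measures were chosen with earlier results of these data known. No dm3 genome or annotation was used here, so genes and sequences at these positions were not analysed here. The software was matplotlib 3.10.9, statsmodels 0.14.6, pandas 2.3.3, scipy 1.17.1 and numpy 2.4.6 under Python 3.11.15.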

Additional observations from a re-analysis of the deposited data

Results flagged for a closer look

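In groups of 4 Saft lists, a list was set apart where its gap to the nearest of the others was a large part of the range (Dixon's test at its 95% limit). Of 31 groups examined 3 were, and chance gives about 1 in 20. The median width of X peaks was 396 bp in clone 4H replicate 2, against 344 to 351 bp in the other Saft lists. At X, 14772715 to 14773770, Saft clone 4H replicate 1 held 276 reads and the other lists 278 each. At X, 3043917 to 3045105, clone 9C replicate 1 held 270 reads and the other lists 271 each, so both gaps are of 2 reads or fewer.

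The width of X peaks relative to autosomal ones moved in opposite directions for the factors. The log2 difference of the medians was −0.080 ± 0.059 in the Phaser lists (SD, n = 2) and 0.12 ± 0.068 in the Saft lists (SD, n = 4), a difference of −0.195. The exact permutation test over 15 assignments gave p = 0.0667 (two-sided, the smallest possible), with an adjusted p of 0.0933.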

How the results depend on the processing

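Of 142 alternatives to 13 results, 119 left the direction and the side of the threshold, where there is one, as they were. With a library left out the exact X tests cannot go below p = 0.0625, and the Phaser and Saft tests cannot go below 0.0667 in any setting, so their side could not change and says nothing about stability. Most of the others came from settings that leave out weak peaks. With −log10 q of 10 or more, the X minus autosome differences were −0.67 for density, 0.39 for fold, −0.18 for reads, 2.55 points for overlap with the other factor and 0.165 for the gap ratio (adjusted p = 0.0365 each, exact sign-flip permutation test, n = 6). Width turned to −0.35 (same p), the share found in the other replicate to −3.43 points and the X share of Phaser minus Saft to −3.89 points. For density, fold, overlap and the gap ratio the unadjusted p had already been the smallest possible in the full lists. Their adjusted p fell only because more of the measures reached that smallest p. Among the 1000 strongest peaks, width turned to −0.14, the X share of Phaser minus Saft to −3.31 points and the X width of Phaser over Saft to 0.79 (log2), while that width was −0.51 with −log10 q of 10 or more and −0.49 with 100 reads or more, so its sign depends on the limit used. Among peaks of 100 reads or more, added after the data were seen, width turned to −0.15, overlap with the other factor to −2.55 points, the X share to −5.08 points and the gap ratio of Phaser minus Saft to 0.130. In core regions, also added later, the means over all lists were −0.78 for density, 0.45 for fold, 0.171 for the gap ratio and −0.18 for width. Fold and gap ratio were raised mainly in the Saft lists. The share of regions with both factors under the first 3 settings was 3.61%, 1.79% and 1.54% on the X, and 2.098%, 1.05% and 2.101% on the autosomes, so with 100 reads or more the X was the lower. The cause was not tested.

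Leaving out each library in turn moved the X minus autosome differences from −0.82 to −0.76 for density, 0.020 to 0.085 for width, 0.29 to 0.40 for fold, −0.19 to −0.044 for reads, 3.93 to 10.5 points for the other replicate, 6.70 to 9.46 points for overlap and 0.134 to 0.180 for the gap ratio. Phaser minus Saft ran from 0.290 to 0.955 points for the X share, −0.18 to −0.023 for width, 5.01 to 7.63 points for the distal share and −0.0813 to −0.0565 for the gap ratio. The share of X regions with both factors ran from 5.93% to 10.1%.

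Replicate numbers are shared between clones, but same-numbered deviations correlated at −0.0062, 0.265 and 0.0776 over 33 regions, so the numbers are not shown to pair samples. Under a replicate block, Phaser minus Saft was 0.499 points for the X share (exact permutation p = 0.444), −0.098 for log2 width (p = 0.667), 6.32 points for the distal share and −0.071 for the gap ratio (p = 0.111 each, the smallest possible). With clone means, no X test can pass 0.05, so its p says nothing about stability. Of 30 ranks of named regions by fold or −log10 q, 20 moved by more than the spread of their read ranks between lists. These 20 were all of the Phaser and Saft core regions, and no rank of the shared regions moved. The core regions were chosen by reads, so their read ranks hardly vary between lists and a move was largely built in. Since depth is unknown, peak numbers are compared within a library.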
